A study of Homo sapiens with 6 samples.

Results

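The transcripts of 40 genes that build the centromere and the kinetochore, or that run the spindle assembly checkpoint, were compared between untreated and oxaliplatin-treated HCT116 cells. The genes were selected by symbol, from a list of constitutive centromere proteins, outer kinetochore subunits and checkpoint components. No cutoff on their values was used, but earlier results of these data were known when they were chosen. All 40 were found among the 27942 genes of the deposited RNA-seq table, and all 40 passed the filter on low counts that left 13727 genes for testing. HCT116 is an established human colorectal carcinoma line, described by the study as wild-type for p53. The NT group held 3 libraries of untreated cells, and the OXA group held 3 libraries of cells given oxaliplatin, a platinum drug that forms DNA adducts, at 0.5 µM for 24 h. Both groups were the same parental line, grown in RPMI with fetal serum, and the labels list penicillin and streptomycin in the medium of all 6 libraries, whereas the methods of the study state that antibiotics were left out. The labels do not say whether replicates were separate cultures, so p-values here measure the spread between these samples, which may be technical.

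Total counts per library ranged from 32979521 to 40967880, and every value below, unless another scale is named, is a count normalized to the mean library size (normalized count). All 6 epithelial markers examined were abundant, between 1896 and 61780 normalized counts in any library. Their sum was 79075 to 114229 in NT and 129104 to 152920 in OXA. These ranges did not overlap, nor did those over all genes tested, given below. The median log2 fold change of the 6 markers was 0.39. None of the 6 passed edgeR's test described below, which called 2.78% of all genes higher and 2.29% lower. At an unadjusted p under 0.05, 3 were higher, against 10.7% of all genes, and DESeq2 called 1 higher, against 4.61%. With the replicate block explained below, KRT8, KRT18, KRT19 and CLDN4 were higher and CDH1 lower, against 12.1% and 10.9% of all genes. The part of this shift in the results below was not tested. The 4 leukocyte markers reached at most 5.48, and their sum was 5 to 8 in NT and 2 to 4 in OXA. The endothelial and fibroblast markers summed to 136 to 317 in NT and 205 to 315 in OXA. NT library 1 stood apart from the other NT libraries, with a mean chi-square per gene of 83.1 and 75.7 against libraries 2 and 3, while all other pairs within a group gave 19.2 to 29.6. Calls that change without it are given with and without it.

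The centromere is the stretch of a chromosome where nucleosomes carry the histone H3 variant CENP-A. On it sits the constitutive centromere-associated network (CCAN), the inner layer of the kinetochore, which stays in place through the cell cycle. In mitosis the CCAN recruits the outer kinetochore, where the NDC80 complex and the SKA complex hold spindle microtubules, and the corona, where CENP-E, CENP-F and the ROD-ZW10-Zwilch complex gather. A kinetochore without microtubules feeds the spindle assembly checkpoint, through the kinases MPS1 (TTK) and BUB1 and the proteins MAD1, MAD2, BUBR1 and BUB3, which together hold back the anaphase-promoting complex (APC/C). Many of these genes are transcribed mostly in G2 and mitosis. In bulk RNA, fewer cells in those phases and less RNA in each such cell cannot be told apart.

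Most kinetochore and checkpoint transcripts were at lower levels in OXA than in NT. A log2 fold change (OXA over NT) below 0 was measured for 35 of the 40 genes, whereas 46.7% of all genes tested had one. Fold changes ran from -0.82 for CENPU to 0.31 for PMF1 on the log2 scale. Their median was -0.34, and the median over all genes tested was 0.023. By edgeR's quasi-likelihood test at an adjusted p under 0.05, 7 of the 40 fell (CENPU, DSN1, SKA1, CENPQ, TTK, KNTC1 and CENPF), against 2.29% of all genes tested. None of the 40 rose, while 2.78% of all genes did. At an unadjusted p under 0.05, 23 of the 40 were lower, against 11.1% of all genes, and 1 was higher, against 10.7%. Asking for a fold over 1.5 as well left 4 of the 40 (CENPU, DSN1, SKA1 and CENPQ), with 1.44% of all genes. DESeq2 placed 17 of them lower, with 4.63% of all genes, and 0 higher.

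With the replicate number as a block, which treats same-numbered libraries as pairs, 24 of the 40 fell and 1 rose. The labels do not state this pairing, which was taken from these same data. The same fit placed 10.9% of all genes lower and 12.1% higher. These shares, and 2.29% lower and 2.78% higher without the block, are the background for the counts of smaller groups below. Every OXA library lay below every NT library for 26 of the 40, against 14.4% of all genes, and above every NT library for PMF1 alone of the 40, against 14.5%. In all 3 same-numbered pairs the OXA library was the lower one for 27 of them, which was so for 27.6% of all genes. The counts of the 40 genes, added together, came to 92335 to 103067 per NT library and 73962 to 79701 per OXA library. The summed ranges did not overlap. The sums over all genes tested did not overlap either, at 35341760 to 35652382 in NT and, higher, 35945589 to 36993361 in OXA. Genes with high counts weigh most in such sums.

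The count of 7 varied with the libraries included. Without NT library 1, 10 of the 40 fell by edgeR, with 4.11% of all genes, and they included the same 7. The 3 added were CENPC, BUB1B and SPC24, with log2 fold changes of -0.42, -0.39 and -0.52 (edgeR adjusted p = 0.0400, 0.0317 and 0.0251 without that library). That fit placed 4.49% of all genes higher and 0 of the 40. Without NT library 2 the count was 2, against 1.05% of all genes, and without OXA library 3 it was 3, against 0.483%. Leaving out NT library 3, OXA library 1 or OXA library 2 left 0 by edgeR, where 0.498%, 0.136% and 0.231% of all genes were called lower. At an unadjusted p under 0.05, those fits had 25, 20 and 19 of the 40 lower, against 10.5%, 8.03% and 7.11% of all genes. The median log2 fold change of the 40 stayed between -0.42 and -0.31 over these 6 fits.

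**Figure D1:**
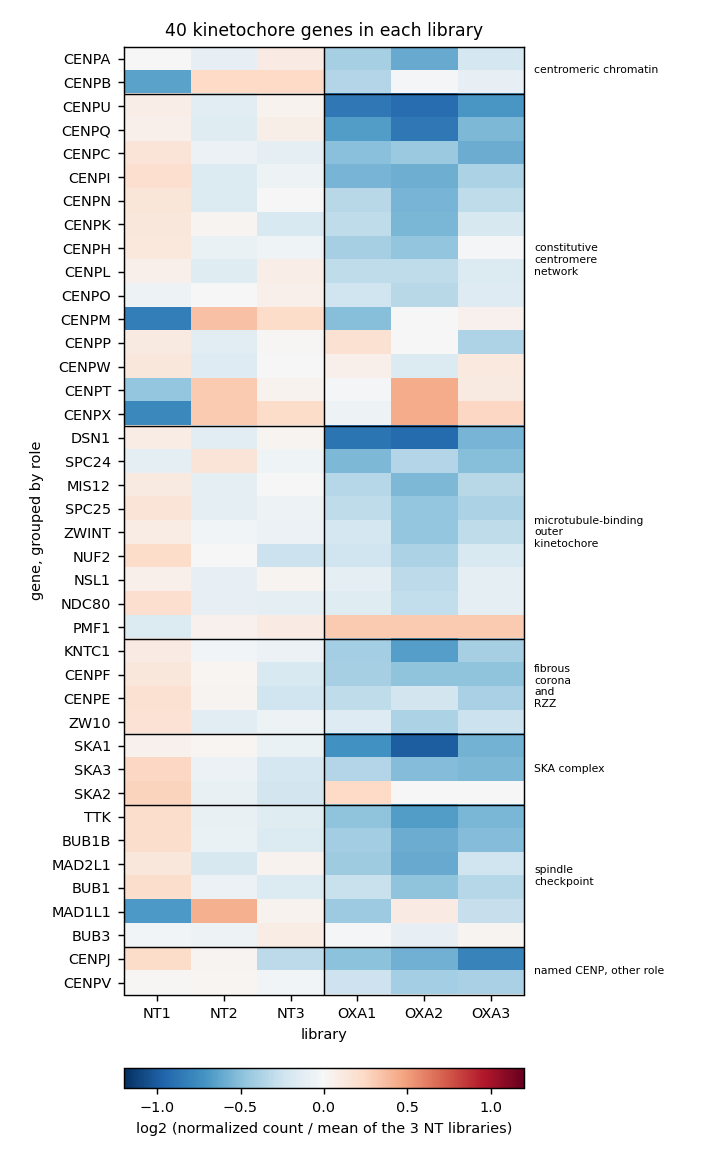
Normalized counts of the 40 genes in each of the 6 libraries, as the log2 ratio to the gene's mean over the 3 NT libraries. Genes are in rows grouped by role and libraries in columns. The 3 OXA columns are on the low side for most rows, and PMF1 is the 1 row with all 3 OXA libraries above all 3 NT libraries.

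Because many genes of this group move together over the cell cycle, the letters near their start sites were examined. The cell cycle genes homology region (CHR), which the DREAM and MuvB-based complexes are known to bind in genes of G2 and mitosis, was searched as TTTGAA. The CCAAT box, bound by NF-Y, was searched as CCAAT, and the E2F site as TTTCCCGC, TTTGGCGC, TTTCGCGC or TTTGCCGC. Both strands were read over the 300 bases from 250 before to 50 after each RefSeq start (GRCh38.p14), where 33 of the 40 genes had an entry, and no motif searched lies within another, although neighbouring matches can share end bases. TTTGAA stood in 14 of the 33 (42.4%), and in 18.2% of the 27305 genes with a RefSeq promoter entry. Those 27305, the background for all shares here, were not limited to genes tested or expressed in these cells. CCAAT stood in 19 of the 33 (57.6%) against 39.7%, both motifs in 8 (24.2%) against 7.26%, and an E2F site in 3 (9.09%) against 3.99%. Among the 5 matched genes that fell in the fit without a block, 2 held TTTGAA (40%), near the share of all 33. Among the 21 matched genes that were lower with the replicate block, 12 held TTTGAA (57.1%), and among the other 12 it was 2 (16.7%), namely NDC80 and NUF2. In the same 2 groups CCAAT stood in 61.9% and 50%, both motifs in 38.1% and 0%, and an E2F site in 14.3% and 0%. The pairing behind this split was taken from these same data, and the other 12 include PMF1, higher with the block. These shares are descriptions with no test, and a match to these letters does not show that a protein binds there.

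Stretches of these promoters are shown because they hold the motif the counts refer to. SKA1 and CENPF were the matched genes with TTTGAA among the 7 that fell, and CENPA and BUB1B were chosen after their values were seen. Capitals mark TTTGAA in the first 4 lines, and CCAAT or its reverse complement ATTGG in the last. All are on the + strand of GRCh38.p14, and the positions are counted from the RefSeq start, with the first transcribed base as +1.
SKA1, chr18:50375066-50375095, TTTGAA at +35 to +40: ggcgcggcgggcggTTTGAAttttgcttac
CENPF, chr1:214603215-214603244, TTTGAA at +41 to +46: ccggtggcggctgcgggcagTTTGAAttag
BUB1B, chr15:40160969-40161068, TTTGAA at -23 to -18: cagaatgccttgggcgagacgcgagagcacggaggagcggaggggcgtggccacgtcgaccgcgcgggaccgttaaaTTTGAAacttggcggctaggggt
CENPA, chr2:26785956-26786055, TTTGAA at -18 to -13: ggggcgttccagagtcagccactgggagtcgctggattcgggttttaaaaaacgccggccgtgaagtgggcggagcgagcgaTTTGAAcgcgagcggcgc
CENPF upstream, chr1:214603095-214603194: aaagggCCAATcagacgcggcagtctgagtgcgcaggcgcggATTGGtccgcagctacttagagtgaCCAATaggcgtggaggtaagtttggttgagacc

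The centromeric chromatin itself was represented by CENPA and CENPB. CENPA, the histone variant that marks the centromere, had 834, 780.5 and 894 normalized counts in NT libraries 1, 2 and 3, and 634, 552 and 722 in OXA libraries 1, 2 and 3. Its mean was 836 ± 57.0 (SD, n = 3) in NT and 636 ± 85.0 in OXA, a log2 fold change of -0.39 (SE 0.13). The groups did not overlap, yet the change did not pass edgeR's test (adjusted p = 0.132), whereas with the replicate block it did (edgeR adjusted p = 0.02). CENPA shares 16943 bases on the same strand with SLC35F6, so part of its count may depend on how reads in the overlap were assigned. CENPB, which binds a short motif in alpha-satellite repeats, had 941, 1736 and 1735 in NT and 1150.1, 1451 and 1377 in OXA. Those groups overlapped, NT library 1 being the lowest of all, and the log2 change was -0.15 (edgeR adjusted p = 0.764).

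Of the 14 CCAN genes, 2 fell, CENPU and CENPQ, and the median log2 fold change of the 14 was -0.27. CENPU and CENPQ are subunits of the CENP-O/P/Q/U/R group, an outward-facing arm of the network. CENPU (chr4:184694085-184734130, - strand) had the largest fall of the 40, with 1349, 1162 and 1316 normalized counts in NT and 704, 675 and 788 in OXA. That is 1276 ± 100.01 against 722 ± 58.5 (SD, n = 3), lower by 43.4%, with a log2 fold change of -0.82 (SE 0.11, edgeR adjusted p = 0.0100). The highest OXA library stayed well below the lowest NT library. CENPU kept its call in 3 of the 6 fits that left out 1 library.

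CENPQ had 562, 488 and 565 normalized counts in NT and 339, 297 and 372 in OXA, without overlap. Its log2 fold change was -0.68 (SE 0.14, edgeR adjusted p = 0.0361), lower by 37.6%, and the call held in 1 of the 6 fits that left out 1 library. CENPO and CENPP, of the same arm, did not pass the test. CENPO had 2107, 2187 and 2294 in NT and 1865, 1739 and 1966 in OXA, for a log2 change of -0.24 (edgeR adjusted p = 0.175, and 0.0364 with the block). CENPP had 306, 258 and 286 in NT and 320.3, 285 and 219 in OXA, so its groups overlapped fully, with a log2 change of -0.04 (edgeR adjusted p = 0.915). The ratio of CENPU to CENPP counts, chosen after the values were seen and not tested, was 4.41 to 4.61 in NT and 2.20 to 3.59 in OXA.

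CENPC, the blueprint subunit that binds CENP-A nucleosomes and reaches out to the MIS12 complex, lay just short of the threshold. It had 975, 835 and 814 normalized counts in NT and 619, 644 and 580.0 in OXA, with a log2 fold change of -0.51 (SE 0.12, edgeR adjusted p = 0.0507). With the block it was lower (edgeR adjusted p = 0.0139), and the groups did not overlap. CENPN, which reads the CENP-A nucleosome, and CENPI gave log2 fold changes of -0.40 and -0.50, with edgeR adjusted p of 0.0975 and 0.0796, and 0.0104 and 0.0268 with the block. These 2, with CENPC, CENPO, CENPQ and CENPU, made the 6 CCAN genes that were lower with the block. CENPH, CENPK, CENPL and CENPM, of the groups built around CENP-H/I/K/M and CENP-L/N, had log2 fold changes of -0.29, -0.34, -0.26 and -0.13, and edgeR adjusted p of 0.331, 0.261, 0.262 and 0.849.

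CENPT, CENPW and CENPX belong to the histone-fold group that forms a second bridge to the NDC80 complex, and none of the 3 passed the test. CENPX had 1097, 2341 and 2194 normalized counts in NT and 1800.4, 2554 and 2236 in OXA. Its log2 fold change of 0.23 (SE 0.27, edgeR adjusted p = 0.691) went with a low value in NT library 1, and without that library it was -0.05. CENPT had 285, 486 and 405 in NT and 386, 533 and 422 in OXA, with a log2 fold change of 0.19 (SE 0.22, edgeR adjusted p = 0.676). CENPW was at 0.01 (edgeR adjusted p = 0.978). The groups overlapped for all 3 genes.

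**Figure D2:**
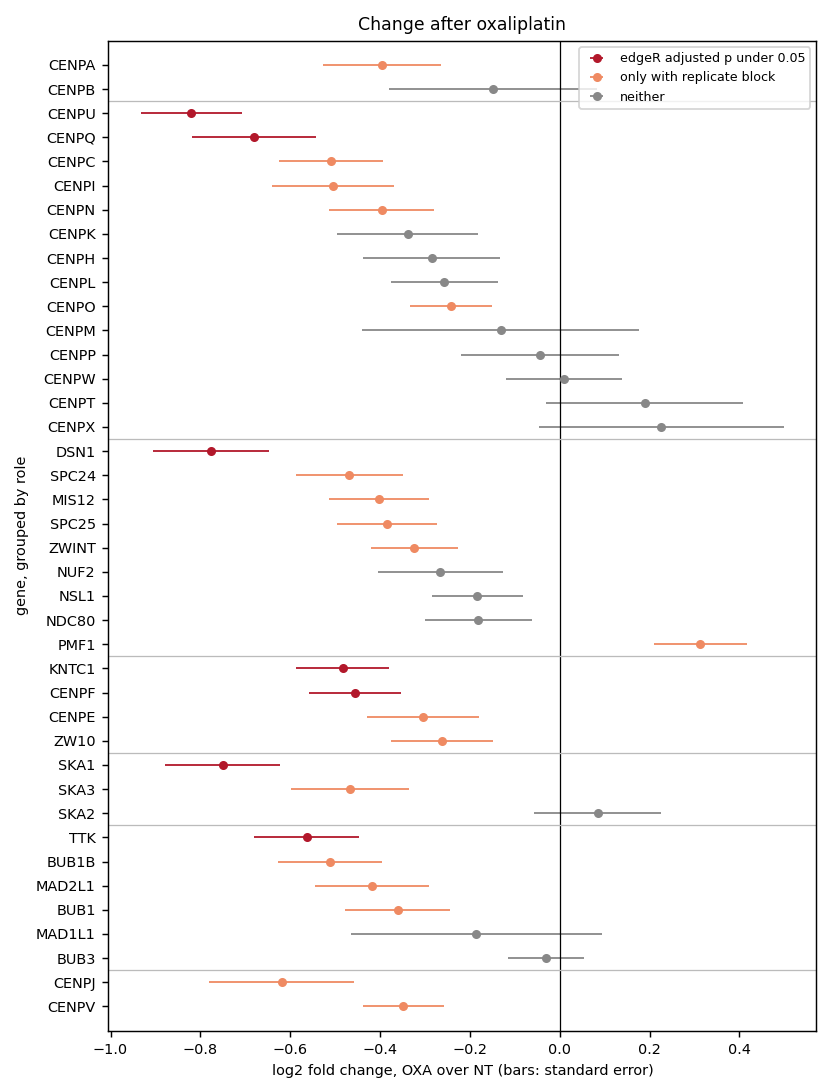
Log2 fold change of OXA over NT for each of the 40 genes, grouped by role. Bars show the standard error and point colours the outcome of the test. CENPU is lowest at -0.82 and PMF1 highest at 0.31, and 35 of the 40 points are below 0.

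In the outer kinetochore, 1 of 9 genes fell, DSN1, and the median log2 fold change was -0.32. With the block 5 of the 9 were lower and 1 was higher. DSN1 and NSL1, with MIS12 and PMF1, form the 4-subunit MIS12 complex that joins the CCAN to the microtubule-binding layer. DSN1 (chr20:36751791-36773818, - strand) had 1502, 1297 and 1446 normalized counts in NT and 770.4, 747 and 959 in OXA. Its mean went from 1415 ± 106 to 825 ± 116 (SD, n = 3), lower by 41.6%, with a log2 fold change of -0.78 (SE 0.13, edgeR adjusted p = 0.0196). The call held in 3 of the 6 fits that left out 1 library.

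The other subunits of the MIS12 complex did not pass the test. MIS12 had 1141, 985 and 1053 normalized counts in NT and 834, 731 and 842 in OXA, with a log2 change of -0.40 (edgeR adjusted p = 0.0847, and 0.0155 with the block). NSL1 had 1595, 1429 and 1571 in NT and 1408, 1231 and 1409 in OXA, which did not overlap but differed by a log2 change of -0.18 (edgeR adjusted p = 0.355). PMF1 was on the opposite side, with 933, 1086 and 1119 in NT and 1304, 1297 and 1298 in OXA. Its mean was 1046 ± 99.0 in NT and 1299.8 ± 3.45 in OXA (SD, n = 3), a log2 fold change of 0.31 (SE 0.10), not past the test (edgeR adjusted p = 0.133) and higher with the block (edgeR adjusted p = 0.0388). PMF1 lies on the same strand as the readthrough gene PMF1-BGLAP, which can share its reads. The DSN1 to PMF1 ratio of counts was 1.19 to 1.61 in NT and 0.576 to 0.739 in OXA, and the DSN1 to NSL1 ratio was 0.908 to 0.942 in NT and 0.547 to 0.681 in OXA. Both ratios were chosen after the values were seen and have no test, and their groups did not overlap.

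NDC80 (HEC1), the microtubule-binding subunit of the complex of that name, had 1959.6, 1592 and 1572 normalized counts in NT and 1544, 1390.2 and 1585 in OXA. Its groups overlapped, with 1708 ± 218 in NT and 1506 ± 103 in OXA (SD, n = 3) and a log2 fold change of -0.18 (SE 0.12, edgeR adjusted p = 0.434). NUF2, its coiled-coil partner, was at -0.27 (edgeR adjusted p = 0.32). The pair that anchors the complex to the kinetochore was lower with the block. SPC24 had 874, 1056 and 917 in NT and 651, 741 and 666 in OXA, with a log2 change of -0.47 (edgeR adjusted p = 0.0665, and 0.0103 with the block). SPC25 was at -0.38 (edgeR adjusted p = 0.0926, and 0.0161 with the block). ZWINT, the link between the KNL1 scaffold and the corona, was at -0.32 (edgeR adjusted p = 0.103, and 0.0161 with the block).

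Among the 4 genes of the corona and the ROD-ZW10-Zwilch complex, 2 fell, and all 4 were lower with the block. The median log2 fold change of the 4 was -0.38. CENPF, a very large coiled-coil protein that accumulates in G2, had 14710.1, 13609.9 and 11729.6 normalized counts in NT and 10108, 9526 and 9579 in OXA. The mean was 13349.9 ± 1507 in NT and 9738 ± 322 in OXA (SD, n = 3), lower by 27.1%, with a log2 fold change of -0.46 (SE 0.10, edgeR adjusted p = 0.0485). KNTC1, which encodes ROD, had 3045, 2792 and 2722 in NT and 2154, 1809 and 2161 in OXA, lower by 28.4% with a log2 fold change of -0.48 (SE 0.10, edgeR adjusted p = 0.0428). Neither gene's groups overlapped, and each kept its call in 1 of the 6 fits that left out 1 library. ZW10, the partner of ROD, was at -0.26 (edgeR adjusted p = 0.236, and 0.0283 with the block). CENPE, the kinesin that carries chromosomes to the spindle equator, was at -0.30 (edgeR adjusted p = 0.213, and 0.0494 with the block).

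Of the 3 subunits of the SKA complex, which tracks microtubule ends, 1 fell, SKA1, and 2 were lower with the block. SKA1 (chr18:50375040-50394168, + strand), whose TTTGAA is shown above, had 1380.0, 1354 and 1254 normalized counts in NT and 805, 671 and 895 in OXA. Its mean went from 1329 ± 66.6 to 790.0 ± 113 (SD, n = 3), lower by 40.5%, with a log2 fold change of -0.75 (SE 0.13, edgeR adjusted p = 0.0210), and the call held in 2 of the 6 fits that left out 1 library. SKA3 had 3159, 2532 and 2309 in NT and 2091, 1864 and 1831 in OXA, without overlap, with a log2 change of -0.47 (edgeR adjusted p = 0.0886, and 0.00982 with the block). SKA2 had 4203, 3286 and 2993 in NT and 4117, 3508 and 3488 in OXA, which overlapped, with a log2 change of 0.08 (edgeR adjusted p = 0.785). Per library, the SKA1 to SKA2 ratio of counts was 0.328 to 0.419 in NT and 0.191 to 0.256 in OXA, and the SKA3 to SKA2 ratio was 0.751 to 0.771 in NT and 0.508 to 0.532 in OXA. These ratios were also chosen after the values were seen and were not tested.

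Of the 6 spindle checkpoint genes, 1 fell, TTK, and 4 were lower with the block, with a median log2 fold change of -0.39. TTK (chr6:80003887-80042527, + strand) encodes MPS1, the kinase that starts checkpoint signalling at the kinetochore. It had 4349.6, 3547 and 3413 normalized counts in NT and 2704, 2364 and 2584 in OXA. The mean was 3769.9 ± 507 against 2551 ± 172 (SD, n = 3), lower by 32.3%, with a log2 fold change of -0.56 (SE 0.12, edgeR adjusted p = 0.0376). The groups did not overlap, and the call held in 1 of the 6 fits that left out 1 library.

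BUB1B, which encodes the APC/C inhibitor BUBR1, had 8212, 6717 and 6334 normalized counts in NT and 5294, 4682 and 4941 in OXA. Its log2 fold change of -0.51 (SE 0.12) just missed the threshold (edgeR adjusted p = 0.0502, and 0.0072 with the block), and the groups did not overlap. BUB1B shares 3696 bases on the same strand with PAK6 and 2624 with the readthrough gene BUB1B-PAK6, so its count has the same limit as that of CENPA. BUB1, the kinase that brings BUBR1 to the kinetochore, had 9032, 7469 and 6979.6 in NT and 6484, 5618 and 6178 in OXA, with a log2 fold change of -0.36 (SE 0.12, edgeR adjusted p = 0.126, and 0.0211 with the block). MAD2L1, which encodes the MAD2 protein that captures CDC20, had 6076, 4838 and 5708 in NT and 4122, 3636 and 4684 in OXA. Its log2 fold change was -0.42 (SE 0.13, edgeR adjusted p = 0.105, and 0.0114 with the block), again without overlap.

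The remaining checkpoint genes overlapped between groups. BUB3, a WD40 protein with roles outside mitosis too, had 10737, 10521 and 11636 normalized counts in NT and 10807, 10218 and 11186 in OXA, with a log2 fold change of -0.03 (SE 0.08, edgeR adjusted p = 0.877). MAD1L1, the docking partner of MAD2, had 278, 603 and 462 in NT and 331, 479 and 371 in OXA, with a log2 fold change of -0.19 (SE 0.28, edgeR adjusted p = 0.756). It shares 417440 bases on the same strand with another protein-coding gene of the annotation, which has no symbol. The BUB1B to BUB3 ratio of counts was 0.544 to 0.765 in NT and 0.442 to 0.490 in OXA, a ratio chosen after the values were seen and not tested. In all, 15 ratios within a complex or pathway were computed, all chosen after the values were seen. Of these, 10 did not overlap between groups and 5 did. No share over other gene pairs was computed, so these counts have no background and describe only the chosen ratios. The overlapping ones were BUB1 to BUB3, at 0.59984 to 0.841 in NT and 0.550 to 0.60002 in OXA, SPC24 to NDC80, NUF2 to NDC80, CENPT to CENPW and MAD2L1 to MAD1L1.

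CENPJ and CENPV carry CENP names without being core kinetochore subunits. CENPJ, a centriole assembly protein, had 1089, 957 and 752 normalized counts in NT and 661, 626 and 535 in OXA, with a log2 change of -0.62 (edgeR adjusted p = 0.0719, and 0.0073 with the block). CENPV was at -0.35 (edgeR adjusted p = 0.071, and 0.0164 with the block). Neither gene's OXA libraries reached its NT libraries.

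**Figure D3:**
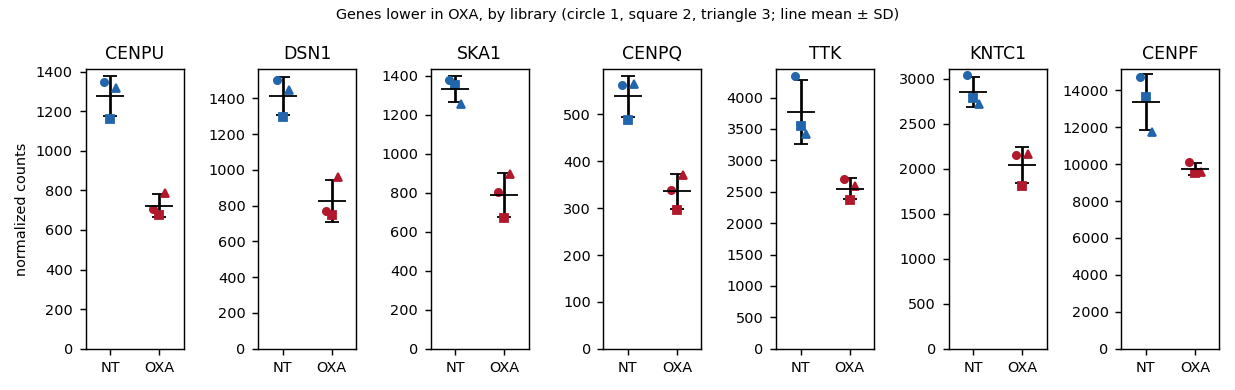
Normalized counts per library, on axes from 0, for the 7 genes lower in OXA by edgeR, with a circle, square and triangle for libraries 1, 2 and 3 and a line for the mean with its SD. In each panel the 3 OXA values are below the 3 NT values, for CENPU by 43.4% of the NT mean and for CENPF by 27.1%.

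Levels were compared between genes on the RPKM scale, as counts per kb of the canonical transcript with the library total scaled by TMM. On this scale the NT means ran from 0.948 ± 0.0807 for CENPP to 69.1 ± 3.95 for ZWINT (SD, n = 3), with a median of 15.8 over the 40. Following ZWINT came CENPX at 68.2 ± 24.7, BUB1 at 57.8 ± 7.92, BUB1B at 53.7 ± 7.52, and CENPV at 46.9 ± 1.02. The lowest after CENPP was NSL1 at 3.25 ± 0.190. Of the 39 neighbouring pairs in this order, 35 did not differ by more than their SDs added together, so most of the order is not resolved. The 4 resolved steps came after CENPV, CENPA, CENPQ and NSL1. A level per length depends on the transcript chosen for the length.

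NT library 1 differed from NT libraries 2 and 3 in these genes along their base composition. Its value divided by the mean of the other NT libraries was above 1 for 30 of the 40 and below 1 for 10, between 0.463 and 1.34, with a median of 1.12 against 0.993 over all genes. The GC content of the transcripts ran from 32.8% to 66.5%. It had a median of 57.6% in the 10 genes that NT library 1 held lower and 40.5% in the others. Over the 40 genes, which share these libraries, Pearson's r between GC content and the log2 ratio was -0.845, and -0.593 for OXA library 1 against the other OXA libraries. The 5 genes with a ratio under 0.7 were CENPM, CENPX, MAD1L1, CENPB and CENPT, all with a GC content of at least 59.0%. CENPV, with a GC content of 59.3%, had a ratio of 1.01. Without NT library 1 the log2 fold changes of the 5 genes under 0.7 became -0.41, -0.05, -0.44, -0.39 and 0.01, and none passed the test (edgeR adjusted p = 0.193, 0.876, 0.172, 0.071 and 0.99). That omission moved NDC80 to -0.07, NUF2 to -0.14, ZW10 to -0.16, SKA2 to 0.24, CENPW to 0.08 and CENPP to 0.01, none of which passed the test either.

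With the replicate block and the trends on GC content and length removed, a fit added after seeing the data, 29 of the 40 were lower, against 22.1% of all genes, and 2 were higher, PMF1 and SKA2, against 23.7%. CENPB, CENPH, CENPL, CENPM and MAD1L1 joined the lower genes there, and SKA2 had a log2 change of 0.17 (edgeR adjusted p = 0.00322).

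**Figure D4:**
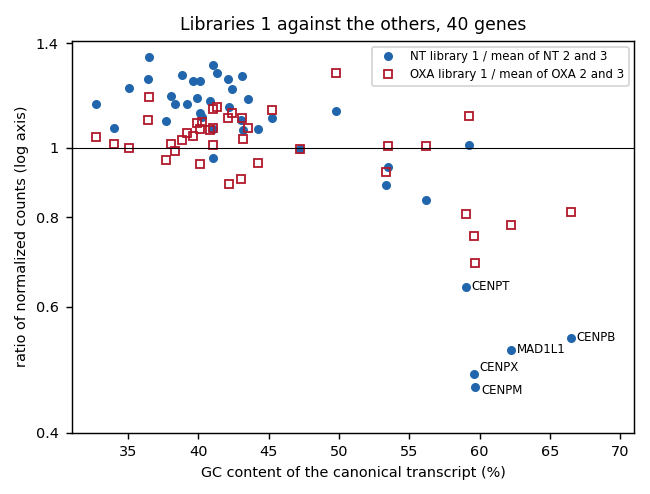
Ratio of NT library 1 to the mean of the other NT libraries, and of OXA library 1 to the mean of the other OXA libraries, on a log axis, against the GC content of the canonical transcript in percent, 1 point per gene and group. The ratios go down with GC content in both groups, with CENPM, CENPX, MAD1L1, CENPB and CENPT lowest in NT.

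A separate list of 29 kinetochore and centromere genes, including subunits, loading factors and regulators, gave 3 that fell and a median log2 fold change of -0.24. The share of all genes that fell was 2.29%. With the block 14 of the 29 were lower, against 10.9% of all genes, and every OXA library was below every NT library for 15, against 14.4%. Without NT library 1, 6 of the 29 fell, against 4.11%. The 3 that fell were HASPIN, KNL1 and HJURP. HASPIN, the kinase that marks histone H3 for Aurora B, had 1309.5, 1131 and 1114 normalized counts in NT and 675, 688 and 742 in OXA, with a log2 change of -0.76 (edgeR adjusted p = 0.0118). KNL1, the scaffold on which MPS1 docks the BUB proteins, had 4115, 3589.5 and 3388 in NT and 2546, 2239.5 and 2618 in OXA, with a log2 change of -0.58 (edgeR adjusted p = 0.0264). HJURP, the chaperone that deposits CENP-A, had 2669, 2785 and 2638 in NT and 1891, 1918 and 1908 in OXA, with a log2 change of -0.50 (edgeR adjusted p = 0.0162). The groups of all 3 genes were apart.

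The APC/C subunits and separase, the machinery that the checkpoint holds back, had a median log2 fold change of 0.06 over 20 genes, with 8 below 0 and 12 above. None of the 20 was lower or higher by edgeR, and with shares of 2.29% and 2.78% over all genes a count of 0 in 20 is near the background. At an unadjusted p under 0.05 there was 1 lower and 0 higher, against 11.1% and 10.7% of all genes, and DESeq2 called 0. With the block 1 was lower, against 10.9% of all genes, ESPL1, which encodes separase, at a log2 change of -0.42 (edgeR adjusted p = 0.175, and 0.0273 with the block). No gene of the 20 had all OXA libraries below all NT libraries, which was so for 14.4% of all genes. All OXA libraries were above all NT libraries for 1, against 14.5%, and 0 were higher with the block, against 12.1%. With the GC and length trends removed as well, 3 were lower and 5 higher, against 22.1% and 23.7% of all genes.

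Of 14 genes for cell cycle context, 13 had a log2 fold change below 0, against 46.7% of all genes. By edgeR 2 fell and 1 rose, against 2.29% and 2.78% of all genes. With the block 9 were lower and 1 higher, against 10.9% and 12.1%. MKI67, the proliferation antigen, and KIF11, the spindle motor Eg5, were the 2 that fell, with log2 fold changes of -0.60 and -0.63 (edgeR adjusted p = 0.0258 and 0.0275). CDKN1A, the p53 target that encodes the cyclin-dependent kinase inhibitor p21, had 4235, 5143 and 6049.6 normalized counts in NT and 40181, 41316 and 35832 in OXA. It rose by a log2 fold change of 2.93 (SE 0.15, edgeR adjusted p = 0.000445).

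**Figure D5:**
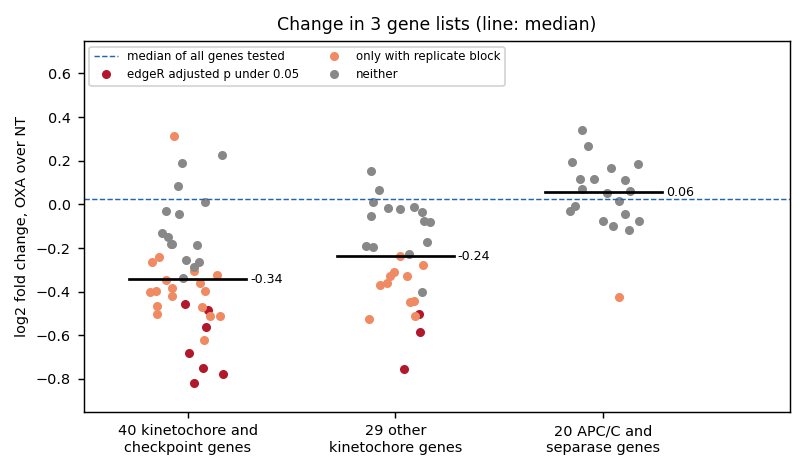
Log2 fold change of OXA over NT for each gene of 3 lists, with a line at each list's median. Point colours show the outcome of the test. The medians are -0.34 for the 40 kinetochore and checkpoint genes, -0.24 for the 29 other kinetochore genes and 0.06 for the 20 APC/C and separase genes.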

How the data were processed

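RNA-seq was measured in 3 NT and 3 OXA libraries of HCT116 cells, made from poly(A) RNA with a stranded kit. The authors deposited raw counts per gene, and beside them a normalized signal per gene, the raw count times a factor that differs between genes as well as libraries, whose factors were used here in 1 alternative. Per the submitters' processing notes Trimmomatic 0.32, STAR 2.7.5b, RSEM 1.3.3, DESeq2 2.13 and GRCh38 were named, and the study's methods give STAR as the aligner. The annotation and strand setting of the counting are not given in the sources used here. If counts came from RSEM, they would be rounded estimates, and overlapping genes are then divided by its model.

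Counts were normalized by TMM, filtered with filterByExpr (minimum count 10, minimum total 15) and tested with edgeR 4.0.16 (glmQLFit, glmQLFTest, R 4.3.3) on all 13727 genes left, with Benjamini-Hochberg adjustment over all of them and a threshold of 0.05. Alternatives used limma 3.58.1, DESeq2 1.42.0, other scalings and filters, a replicate block and the omission of each library. Scripts were tested on simulated data. NT and OXA libraries of 1 number shifted the same way around their group means (correlations over genes of 0.481, 0.467 and 0.257 for numbers 1, 2 and 3, and -0.409 to 0.0784 across numbers), so the numbers were taken as pairs. Deviations from a group mean cancel out within the group, so positive values at the same number by themselves push those across numbers down. The labels state no pairing, and it was taken from these same data. Gene lengths, GC content and positions came from GENCODE release 44 (GRCh38) and promoters from RefSeq (GRCh38.p14). CENPH, CENPL, CENPM, KNTC1, BUB3, TTK and CENPJ had no promoter entry. No deposited column of counts was left unused.

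The 40 genes and all lists were chosen with earlier results of these data known. Values per library are given for the genes past the test, the 3 highest and 3 lowest by fold change, and CENPA, NDC80, BUB1, BUB1B, MAD2L1 and TTK. The values per library of other genes were added after they were seen.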

Additional observations from a re-analysis of the deposited data

How the results depend on the processing

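Over the alternatives tried, the median log2 fold change of the 40 genes kept its sign, while the counts past the threshold moved. The 7 genes called lower became 17 with DESeq2 and 5 with the authors' gene-specific factors. They became 4 with a fold over 1.5 required as well, and 0 to 10 with 1 library left out. The count was 24 with the replicate block, and 29 with the block and the GC and length trends removed. Genes called higher went from 0 to 1 with the block and 2 with the trends removed as well. The block changed no other call than those given beside the genes and lists. The 3 of the 29 other kinetochore genes became 9 with DESeq2, 1 with the fold, 5 with library totals only, 14 with the block, 20 with the trends removed and 0 to 6 with 1 library left out. The 0 APC/C and separase genes called lower became 1 with the block, 3 with the trends removed (where 5 were higher) and 0 to 1 with 1 library left out, NT library 1 in that case. Over all genes, the 315 called lower became 635 with DESeq2, 200 with the authors' gene-specific factors, 198 with the fold, 511 with library totals only, 1493 with the block, 3017 with the trends removed and 19 to 571 with 1 library left out. The 381 called higher became 633, 241, 1664 and 3244 with DESeq2, the authors' factors, the block and the trends removed, and 66 to 623 with 1 library left out. The cause of these moves was not tested.

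Of 640 values for a gene under an alternative, 527 kept their sign and side of the threshold. A call was gained in 59 and lost in 35. In 19 the sign changed, all in genes not called in the fit without a block. Among those genes, SKA2, CENPM and MAD1L1 were called with the block and the trends removed. BUB3 turned to 0.017 with the authors' factors, 0.061 with the trends removed and, with 1 library left out, ranged from -0.092 to 0.0048 (without OXA library 2). CENPM ranged from -0.4141 to 0.0534 with 1 library left out, above 0 without NT library 2 and at 0.025 without OXA library 1. CENPP turned to 0.154 with the authors' factors, 0.0128 without NT library 1 and 0.0631 without OXA library 3, in a range from -0.1695. CENPW turned to -0.0298 with library totals only, -0.0191 with no filter, -0.0283 with the trends removed, and -0.0935, -0.0192, -0.0138 and -0.0822 without NT library 2, NT library 3, OXA library 1 and OXA library 3, in a range up to 0.0896. CENPX turned to -0.0033 with the trends removed and -0.0456 without NT library 1 (range up to 0.3902), MAD1L1 to 0.0609 without NT library 2 (range from -0.4351), and SKA2 to -0.0499 without NT library 3 (range up to 0.2389). With 3 libraries a group, adjusted p-values near 0.05, such as those of CENPC and BUB1B, fall on either side of it with small changes.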
